A study of Arabidopsis thaliana with 12 samples.

Results

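A set of 10 genes of the phosphate starvation response was followed by name through all libraries: the non-coding RNAs IPS1 and AT4, the regulators SPX1 and SPX3, the transporter PHT1;4, the lipid enzymes SQD1, SQD2, MGD3 and PECP1, and the ribonuclease RNS1. They are 10 of the 69383 features in each table, of which 37898 are nuclear genes, and all 10 passed the filter on low counts that left 22465 features for testing. The libraries were made from polyadenylated RNA of whole Arabidopsis seedlings, 12 days old, grown on a medium with sucrose. Col-0, the wild type, was compared with RNAi-MARS, a line in which the non-coding RNA MARS is targeted by an RNA interference construct. Each genotype was collected at 0 h, before treatment, and at 4 h after a spray with 10 µM of the hormone abscisic acid (ABA), with 3 libraries (A, B and C) in each of the 4 groups. The labels name neither the promoter that drives the construct nor the number of independent lines, and no group was left unsprayed at 4 h, so the hormone, the spraying and the time of day cannot be told apart. They also do not say whether the 3 libraries of a group came from separate cultures, so the p-values reflect a spread between samples that may in part be technical.

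Total counts ran from 19020202 to 38787804 per library. Libraries of the same group differed beyond sampling noise (lowest chi-square per degree of freedom 6.41). Levels of MARS did not overlap between the genotypes at either time and were lower in RNAi-MARS, at 0.156 to 0.196 against 0.344 to 6.63 CPM, counts scaled to a common library total, at 0 h and at 1.34 to 4.11 against 9.09 to 21.3 CPM at 4 h. The RNAi-MARS libraries at 0 h held 3 to 6 counts of MARS. Neither genotype difference of MARS was called across all features (edgeR, adjusted p = 0.996 at 0 h and 0.477 at 4 h), and DESeq2 called the former.

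Plants short of phosphate switch on a set of genes through PHR1, a MYB transcription factor that binds the P1BS element. When phosphate is ample, SPX proteins bind inositol pyrophosphates and hold PHR1 away from its targets. Downstream of PHR1, the microRNA miR399 lowers PHO2, an enzyme that marks phosphate transporters for removal, while IPS1 and AT4 carry a stretch that pairs with miR399 around a bulge and so keep it from PHO2, which is called target mimicry. Other targets scavenge phosphate from RNA and organic esters, or replace phospholipids with galactolipids and sulfolipids.

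The mature miR399 sequences are shown because IPS1 and AT4 are defined by their pairing with them. They were read from TAIR10.1 with the RefSeq annotation and are written as DNA, with the seed (bases 2 to 8) in capitals. All of these share the seed, and miR399b and miR399c-3p are the same along their whole length.
miR399a (chr1:10227165-10227185, plus strand): tGCCAAAGgagatttgccctg
miR399b (chr1:23345387-23345407, minus strand): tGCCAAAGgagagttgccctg
miR399c-3p (chr5:24962568-24962588, plus strand): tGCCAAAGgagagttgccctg
miR399d (chr2:14442988-14443008, minus strand): tGCCAAAGgagatttgccccg
miR399e (chr2:14443582-14443602, plus strand): tGCCAAAGgagatttgcctcg
miR399f (chr2:14445084-14445104, plus strand): tGCCAAAGgagatttgcccgg

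The mimic stretches of the non-coding RNAs follow, with capitals for bases that pair with miR399b.
IPS1 (chr3:3051224-3051247, plus strand): ttGGGCAACTtctaTCCTTTGGCA
AT4 (chr5:895149-895172, plus strand): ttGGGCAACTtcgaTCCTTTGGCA
In both RNAs 18 of the 21 bases of miR399b paired, and 3 bases were inserted opposite the position after base 10 of the microRNA. Over the other family members the number of paired bases was 16 to 18.

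The P1BS element, GNATATNC, was searched in the 300 bases before the annotated start of each gene in TAIR10.1; the motif reads the same on both strands. It was found in 2 of the 10 genes, AT4 and SPX3, against 2388 of 37897 promoters of the same length (6.30%). These promoters are printed with the element in capitals. In AT4 it begins 26 bases before the start, and SPX3 holds it at 213 and 90 bases before the start.
AT4 promoter (chr5:894282-894581, plus strand): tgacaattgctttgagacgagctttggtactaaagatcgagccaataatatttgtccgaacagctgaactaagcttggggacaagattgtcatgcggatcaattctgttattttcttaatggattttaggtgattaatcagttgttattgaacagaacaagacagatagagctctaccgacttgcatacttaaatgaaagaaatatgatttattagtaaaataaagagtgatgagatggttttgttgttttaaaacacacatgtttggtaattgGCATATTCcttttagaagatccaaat
SPX3 promoter (chr2:18606110-18606409, plus strand): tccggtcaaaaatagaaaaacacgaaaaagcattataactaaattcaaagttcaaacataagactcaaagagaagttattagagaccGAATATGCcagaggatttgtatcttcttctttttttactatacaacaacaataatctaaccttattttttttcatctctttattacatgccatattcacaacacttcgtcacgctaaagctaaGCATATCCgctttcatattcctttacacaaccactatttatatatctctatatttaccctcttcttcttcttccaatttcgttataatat
The ABA response element, searched as ACGTGNC on both strands, was in none of the 10 promoters and in 3092 of the 37897 (8.16%). Neither result says anything about sites outside this window. In the wider list of other phosphate genes, P1BS was in 6 of 7 microRNA precursor promoters, 7 of 14 of phosphatases and nucleases, 6 of 13 of lipid remodelling, 3 of 20 of regulators and 2 of 17 of transport. The windows of the neighbouring precursors MIR399D and MIR399E overlap, and the same element is counted for both.

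Levels differed widely between the genes. Per kilobase of annotated exon, the mean level in Col-0 at 0 h was highest for AT4, at 204.0 CPM per kb ± 133 (SD, n = 3), followed by SPX1 at 130.4 ± 72.8, SQD1 at 111.6 ± 40.5 and SQD2 at 110.0 ± 48.1. IPS1 stood at 60.4 ± 44.2 CPM per kb, PECP1 at 26.7 ± 15.5, PHT1;4 at 16.7 ± 8.52, MGD3 at 10.9 ± 6.57 and SPX3 at 10.6 ± 6.77. RNS1 was lowest, at 1.65 ± 1.14 CPM per kb. Neighbours in this order differed by less than the larger of their SDs, except SQD2 from IPS1 and SPX3 from RNS1. Levels below are CPM, which compare libraries within a gene and not genes with each other.

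IPS1 (AT3G09922, chr3:3050989-3051530, plus strand, 1 exon) was measured at 37.0, 54.3 and 6.97 CPM in libraries A, B and C of Col-0 at 0 h, and at 0.138, 4.52 and 1.33 CPM at 4 h. In RNAi-MARS it stood at 14.7, 5.445 and 1.73 CPM at 0 h and at 13.03, 50.7 and 0.580 CPM at 4 h. All Col-0 libraries at 4 h lay below all Col-0 libraries at 0 h, while the RNAi-MARS libraries at 4 h reached both above and below those at 0 h. Library A of Col-0 at 4 h held only 4 counts of IPS1, with an exact Poisson 95% interval of 1.09 to 10.2 counts that covers counting error only. IPS1 fell by 4.13 ± 1.49 (SE) on the log2 scale in Col-0 (edgeR, adjusted p = 0.0496). This call was lost in 12 of 20 alternative analyses, with adjusted p = 0.109 without the filter on low counts, 0.169 in limma-voom and 0.127 without library A of Col-0 at 4 h, and was kept by DESeq2 at 0.0139. In RNAi-MARS the log2 difference between the times was 1.59 ± 1.28 (edgeR, adjusted p = 0.346), and it was -0.03 without library B of RNAi-MARS at 4 h.

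AT4 (AT5G03545, chr5:894582-895517, plus strand, 1 exon), the other miR399 mimic, had 238.1, 285.0 and 49.6 CPM in Col-0 at 0 h and 19.0, 59.1 and 33.2 CPM at 4 h. In RNAi-MARS its levels were 113.3, 67.8 and 39.7 CPM at 0 h and 150.9, 407.1 and 28.5 CPM at 4 h. As for IPS1, library B was the highest and C the lowest in Col-0 at 0 h and in RNAi-MARS at 4 h. For AT4 the times overlapped in both genotypes. The log2 difference between 4 h and 0 h was -2.37 ± 0.92 (SE) in Col-0 (edgeR, adjusted p = 0.0651) and 1.41 ± 0.89 in RNAi-MARS (0.229). The Col-0 difference passed the threshold in 4 of 20 alternative analyses, DESeq2 among them, and the RNAi-MARS value was 0.31 without library B of RNAi-MARS at 4 h. Within RNAi-MARS at 4 h the highest library exceeded the lowest 14.3-fold for AT4 and 87.4-fold for IPS1.

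**Figure D1:**
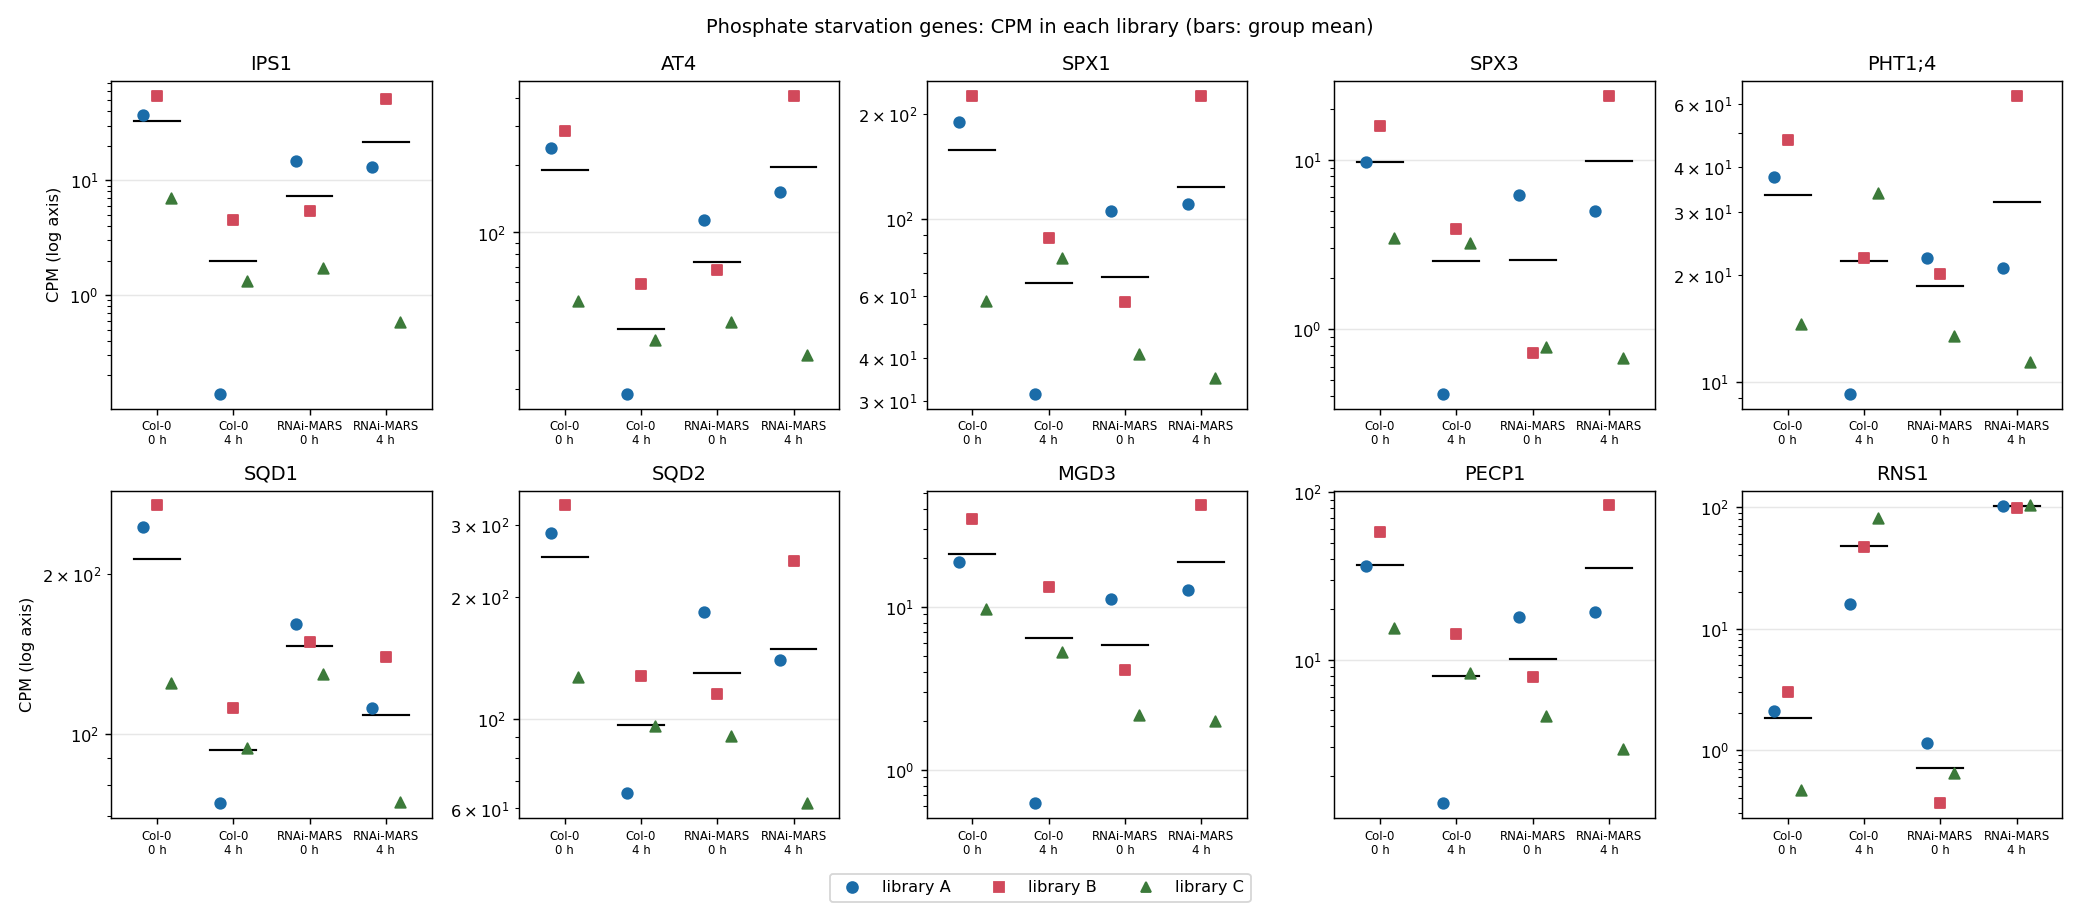
CPM of each of the 10 genes in every library (log axes, own scale for each gene). Points are libraries A, B and C, and bars are group means of 3. Apart from RNS1, B is the highest and C the lowest of the RNAi-MARS libraries at 4 h in every panel, and RNS1 lies between 99.3 and 103.3 CPM there.

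SPX1 (AT5G20150, chr5:6802282-6803655, plus strand), which encodes an inhibitor of PHR1, stood at 189.1, 224.6 and 58.0 CPM in Col-0 at 0 h and at 31.5, 88.3 and 77.2 CPM at 4 h. In RNAi-MARS it was at 105.3, 57.7 and 40.9 CPM at 0 h and at 110.1, 225.1 and 35.02 CPM at 4 h. The groups overlapped in all comparisons of genotype and time. SPX3 (AT2G45130, chr2:18606410-18607853, plus strand), a related SPX protein gene with a lower level, had 9.67, 15.9 and 3.47 CPM in Col-0 at 0 h and 0.415, 3.90 and 3.23 CPM at 4 h. Its RNAi-MARS values were 6.19, 0.726 and 0.780 CPM at 0 h and 5.02, 23.9 and 0.676 CPM at 4 h. A single library was far above the others in both RNAi-MARS groups, A at 0 h and B at 4 h. The log2 differences between the times were -1.26 ± 0.71 for SPX1 and -1.98 ± 1.24 for SPX3 in Col-0, and 0.87 ± 0.70 and 1.97 ± 1.22 in RNAi-MARS, none of them called (edgeR, adjusted p = 0.185, 0.236, 0.350 and 0.224). Without library B of RNAi-MARS at 4 h the RNAi-MARS values were 0.12 for SPX1 and 0.20 for SPX3.

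PHT1;4 (AT2G38940, chr2:16257157-16260253, plus strand), a high-affinity phosphate transporter of the plasma membrane, was measured at 37.6, 47.8 and 14.6 CPM in Col-0 at 0 h and at 9.26, 22.2 and 33.95 CPM at 4 h. In RNAi-MARS the levels were 22.3, 20.1 and 13.4 CPM at 0 h and 20.9, 63.3 and 11.4 CPM at 4 h. In Col-0 at 4 h library C was the highest, where 8 of the other 9 genes had B. The log2 difference between the times was -0.61 ± 0.67 in Col-0 (edgeR, adjusted p = 0.497) and 0.80 ± 0.67 in RNAi-MARS (0.365), and the latter was -0.17 without library B of RNAi-MARS at 4 h.

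The sulfolipid genes varied least between libraries. SQD1 (AT4G33030, chr4:15935373-15937833, plus strand), which makes UDP-sulfoquinovose, the head group donor, stood at 245.2, 269.0 and 124.8 CPM in Col-0 at 0 h and at 74.0, 111.9 and 94.2 CPM at 4 h. In RNAi-MARS it stood at 160.8, 148.7 and 129.6 CPM at 0 h and at 111.7, 139.4 and 74.4 CPM at 4 h. The Col-0 groups did not overlap, and the RNAi-MARS groups did. SQD1 fell by 1.19 ± 0.30 (SE) on the log2 scale in Col-0 (edgeR, adjusted p = 0.00866), and all 20 alternative analyses kept this call. In RNAi-MARS the log2 difference was -0.43 ± 0.29 and was not called (edgeR, adjusted p = 0.262); the difference between the genotypes' responses was 0.76 ± 0.41 and was not called either (adjusted p = 0.946).

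SQD2 (AT5G01220, chr5:86543-90117, minus strand), the transferase that completes the sulfolipid, had 287.6, 336.1 and 127.0 CPM in Col-0 at 0 h and 65.6, 127.3 and 95.8 CPM at 4 h. In RNAi-MARS it had 183.4, 115.3 and 90.5 CPM at 0 h and 139.4, 244.8 and 61.8 CPM at 4 h. The Col-0 groups met at 127 CPM, where library C at 0 h and library B at 4 h were level. The log2 difference was -1.38 ± 0.52 in Col-0 (edgeR, adjusted p = 0.0572) and 0.20 ± 0.51 in RNAi-MARS (0.779). The Col-0 difference passed the threshold in 6 of 20 alternative analyses, DESeq2 among them, and without library B of RNAi-MARS at 4 h the RNAi-MARS value was -0.34.

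MGD3 (AT2G11810, chr2:4743162-4746813, plus strand), a synthase of galactolipid, was at 18.7, 34.7 and 9.73 CPM in Col-0 at 0 h and at 0.622, 13.3 and 5.27 CPM at 4 h. Its RNAi-MARS levels were 11.2, 4.10 and 2.17 CPM at 0 h and 12.7, 41.9 and 1.98 CPM at 4 h. PECP1 (AT1G17710, chr1:6090405-6092027, minus strand), a phosphatase that frees phosphate from phosphoethanolamine and phosphocholine, had 36.5, 58.2 and 15.5 CPM in Col-0 at 0 h and 1.38, 14.1 and 8.28 CPM at 4 h. PECP1 in RNAi-MARS stood at 17.9, 7.83 and 4.62 CPM at 0 h and at 19.2, 83.5 and 2.90 CPM at 4 h. The Col-0 groups overlapped for MGD3 and lay apart for PECP1, and in RNAi-MARS at 4 h the highest library exceeded the lowest 21.2-fold for MGD3 and 28.8-fold for PECP1. The log2 differences in Col-0 were -1.75 ± 1.12 for MGD3 and -2.24 ± 1.11 for PECP1, and those in RNAi-MARS were 1.73 ± 1.11 and 1.82 ± 1.07, none of them called (edgeR, adjusted p = 0.244, 0.135, 0.240 and 0.199). Without library B of RNAi-MARS at 4 h the RNAi-MARS values were 0.39 for MGD3 and 0.18 for PECP1. MGD3 had counts that were not whole in 2 libraries.

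RNS1 (AT2G02990, chr2:873506-874886, plus strand), a secreted ribonuclease that is also known from wounded tissue, behaved unlike the other 9 genes. It was at 2.09, 2.98 and 0.469 CPM in Col-0 at 0 h and at 16.0, 47.0 and 81.8 CPM at 4 h. In RNAi-MARS it was at 1.14, 0.363 and 0.641 CPM at 0 h and at 101.8, 99.3 and 103.3 CPM at 4 h. Both genotypes showed it higher in every library at 4 h than in any at 0 h, and every RNAi-MARS library at 4 h lay above every Col-0 library of that time. RNS1 rose by 4.73 ± 0.68 (SE) on the log2 scale in Col-0 and by 7.11 ± 0.77 in RNAi-MARS (edgeR, adjusted p = 0.000412 and 6.45e-05), and all 20 alternative analyses kept both calls. The difference between these rises was 2.38 ± 1.02 (edgeR, adjusted p = 0.946), and the genotype difference at 4 h was 1.08 ± 0.54 (adjusted p = 0.590), so neither was called.

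**Figure D2:**
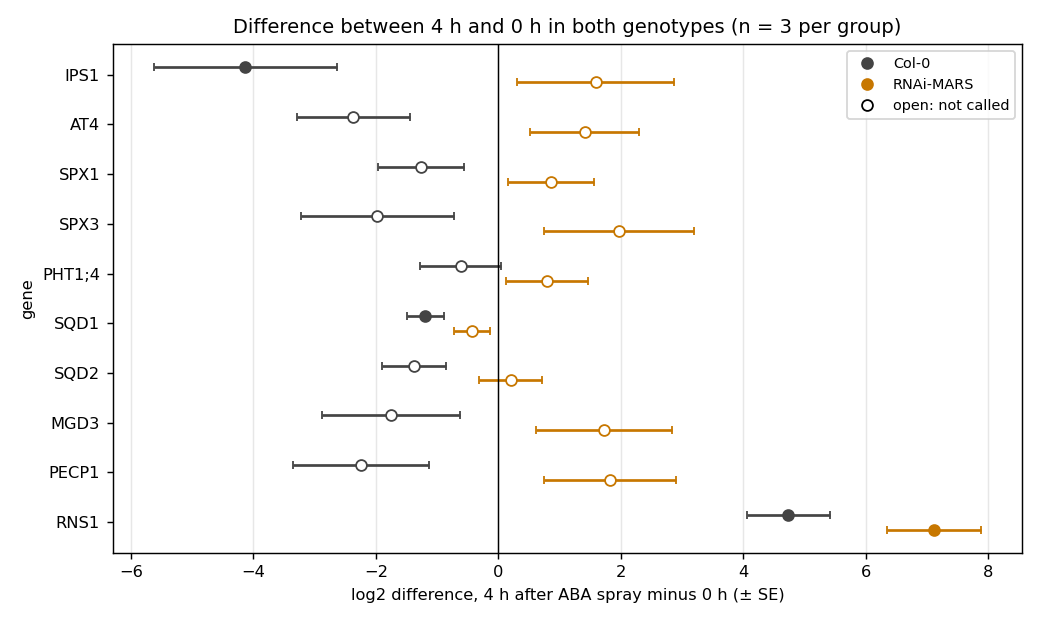
Log2 difference between 4 h after the ABA spray and 0 h for each gene in Col-0 (grey) and RNAi-MARS (orange), from edgeR, with bars of ± 1 SE and 3 libraries per group. Filled points were called at an adjusted p under 0.05, which were IPS1, SQD1 and RNS1 in Col-0 and RNS1 in RNAi-MARS.

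Counted over the 10 genes, the time comparison in Col-0 called 3, with RNS1 higher and IPS1 and SQD1 lower, where 40.0% of all tested features were called (20.7% higher and 19.3% lower). Over the genes the median log2 difference was -1.57, against -0.005 over all features. The groups did not overlap for 4 genes (IPS1, SQD1, PECP1 and RNS1), against 53.0% of all features. In RNAi-MARS only RNS1 was called, where 42.6% of all features were called (21.6% higher and 21.0% lower), and only RNS1 had groups that did not overlap, against 52.4%. The median there was 1.502, against -0.02 over all features. The number called in Col-0 was 5 of 10, with AT4 and SQD2 added, in DESeq2, where 28.5% of all features were called. It was also 5 of 10 without library C of Col-0 at 0 h (31.1% of features), or without B (41.1%) or C (40.2%) of RNAi-MARS at 4 h. In the 12 of 20 alternative analyses that lost IPS1 it was 2 of 10, RNS1 and SQD1. In those runs 25.6% to 40.4% of features were called. In RNAi-MARS it was 1 of 10 in every alternative run, where 27.7% to 48.4% of features were called.

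Between genotypes no gene was called at either time by edgeR, limma-voom or DESeq2, and edgeR called 0.089% of all features at 0 h and 0.089% at 4 h. Before ABA the log2 difference of RNAi-MARS from Col-0 was negative for all 10 genes, from -2.18 ± 1.30 for IPS1 to -0.54 ± 0.29 for SQD1, with a median of -1.34 against 0.002 over all features. None reached an unadjusted p under 0.05, against 4.33% of all features, and none had groups that did not overlap, against 11.3%. After ABA the difference was positive for all 10 genes, from 3.54 ± 1.47 for IPS1 to 0.22 ± 0.29 for SQD1, with a median of 1.35 against -0.006. IPS1 and AT4 reached an unadjusted p under 0.05, against 8.82% of all features, and RNS1 alone had groups that did not overlap, against 11.7%. Apart from RNS1, the genes varied together between libraries of a group, as given below. Their shared sign at either time, and the medians here and over time, therefore do not rest on 10 independent genes. Without library A of Col-0 and library B of RNAi-MARS at 4 h, which stood lowest and highest for most of these genes and were left out for that reason after the data were seen, the sign after ABA turned for 6 of them. Those were SPX1 (-0.17), SPX3 (-0.26), PHT1;4 (-0.77), SQD1 (-0.13), SQD2 (-0.13) and MGD3 (-0.29). Without library B of RNAi-MARS at 4 h alone, the difference after ABA was 1.92 for IPS1, 1.30 for AT4, 1.11 for RNS1 and 0.55 for PECP1, from 0.01 to 0.28 for SPX1, SPX3, SQD1, SQD2 and MGD3, and -0.40 for PHT1;4.

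The difference between the ABA responses shares its libraries with all the comparisons above. It was positive for all 10 genes, from 0.76 ± 0.41 (SE) for SQD1 to 5.72 ± 1.96 for IPS1, with a median of 2.93 against -0.01 over all features. Here too the shared sign, the median and the count of genes by unadjusted p do not rest on 10 independent genes. No gene was called by edgeR, limma-voom or DESeq2, and edgeR called 0.0% of all features. By unadjusted p under 0.05, 5 genes passed (IPS1, AT4, SPX3, PECP1 and RNS1), where 4.79% of all features did. Without library B of RNAi-MARS at 4 h the values were 4.10 for IPS1, 2.68 for AT4, 1.38 for SPX1, 2.17 for SPX3, 0.44 for PHT1;4, 0.55 for SQD1, 1.03 for SQD2, 2.14 for MGD3 and 2.41 for both PECP1 and RNS1. Without both libraries named above, IPS1 stood at 3.48 and PHT1;4 at 0.07.

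Libraries of the same group differed widely in these genes. The spread was measured as the SD of log2 CPM around the group means, pooled over the 4 groups. IPS1 had an SD of 2.24, and only 12 of 21784 nuclear genes tested, IPS1 included, had one at least as large. SPX3 followed with 1.81, MGD3 with 1.72, PECP1 with 1.63, AT4 with 1.31 and SPX1 with 1.01. RNS1 had 0.962, PHT1;4 had 0.927, SQD2 had 0.718 and SQD1 had 0.416, at the 82.5th percentile of nuclear genes. The median over the 10 genes was 1.16, against 0.183 over nuclear genes, whose 95th percentile was 0.755.

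**Figure D3:**
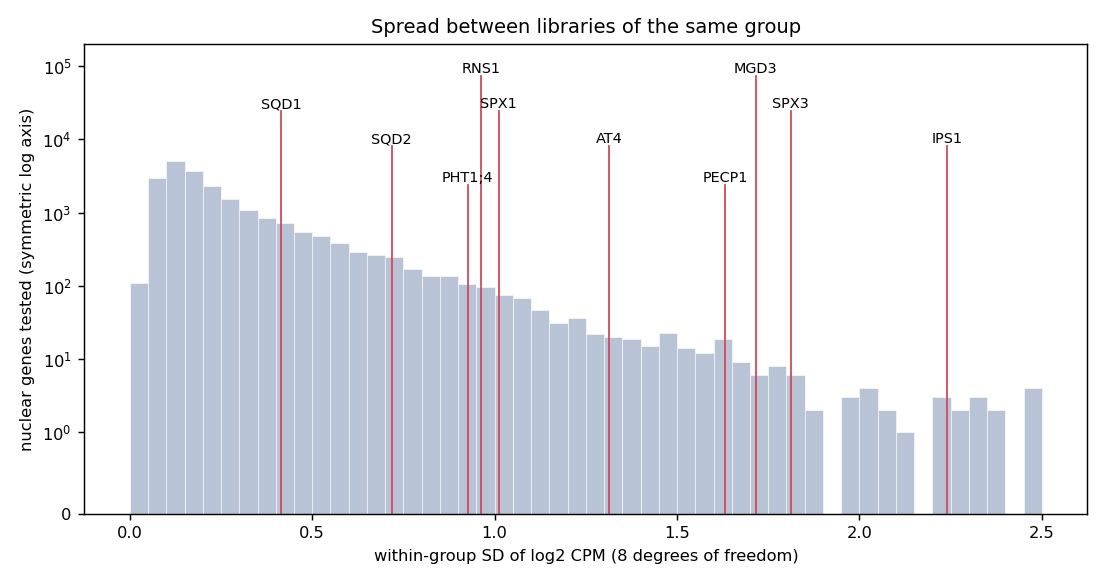
Number of nuclear genes (symmetric log axis) by their within-group SD of log2 CPM, with the 10 genes marked by red lines. Values over 2.5 are counted in the last bin. SQD1 and SQD2 lie below 0.755, the 95th percentile, and the other 8 genes lie above it.

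The same libraries were high and low for nearly all of these genes. Leaving RNS1 aside, library B was the highest of Col-0 at 0 h for 9 of 9 genes and of RNAi-MARS at 4 h for 9 of 9, where it was the highest for 27.8% and 34.3% of all features. Library A was the highest of RNAi-MARS at 0 h for 9 of 9 (37.0% of features), and library B of Col-0 at 4 h for 8 of 9 (29.4%). At the low end, library C was last in Col-0 at 0 h and in RNAi-MARS at 4 h for 9 of 9 genes (33.0% and 32.7% of features), and library A was last in Col-0 at 4 h for 9 of 9 (34.6%). Library C was last in RNAi-MARS at 0 h for 8 of 9 (25.0%), with SPX3 the exception. The letters mark no shared batch in the labels. RNS1 shared both ends of this order in Col-0 at 0 h, the low end in Col-0 at 4 h and the high end in RNAi-MARS at 0 h. In RNAi-MARS at 4 h its highest library exceeded its lowest 1.04-fold.

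**Figure D4:**
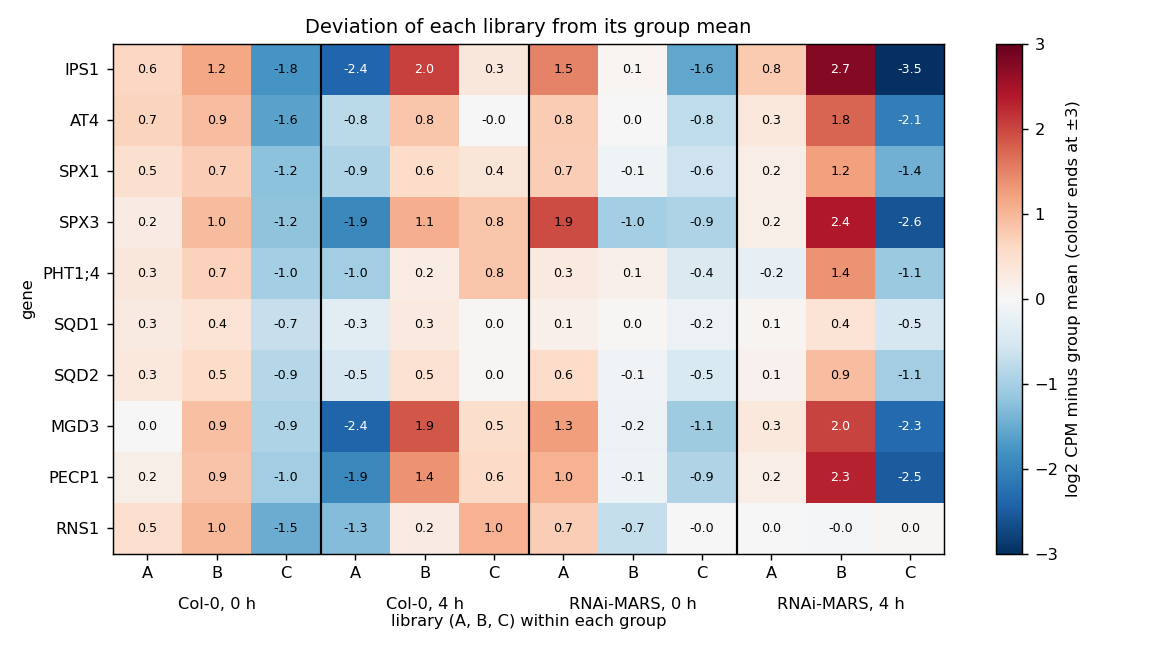
Deviation of each library from its group mean in log2 CPM for each of the 10 genes, with libraries A, B and C in columns within the 4 groups. Red is above and blue below the group mean, and colours end at ±3. Most columns keep 1 colour for nearly all genes, and the RNS1 row is close to 0 in RNAi-MARS at 4 h.

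Deviations from the group means were correlated between genes over the 12 libraries, with an exact 2-sided permutation of libraries within groups, taken over every possible assignment, and Benjamini-Hochberg adjustment over the 45 pairs. All 36 pairs without RNS1 passed by Pearson's r and by Spearman's rho, with r from 0.820 to 0.993 and a median of 0.941, and rho from 0.790 to 0.993. The highest adjusted permutation p among them was 0.00965 for r and 0.0309 for rho. For 21 of these pairs the unadjusted permutation p was 0.000772, the smallest that these permutations can give. AT4 and SQD2 were closest, at r = 0.993, followed by SPX1 and SQD2 at 0.990. Leaving out the 2 libraries farthest from the median of the first gene gave r from 0.731 to 0.988 over the 36 pairs, of which 30 passed, and leaving out library B of RNAi-MARS at 4 h gave 0.790 to 0.991. The 9 pairs with RNS1 had r from 0.522 to 0.677, of which 3 passed by r and 0 by rho. The split by RNS1 was not set beforehand. Pairs of other genes were not tested in this way, so no share over all features stands beside these counts.

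Organ markers were followed in the same libraries, since whole seedlings hold roots and shoots in proportions that can differ. In such bulk samples fewer cells of a type and less RNA per cell cannot be told apart. All 19 root markers and all 9 shoot photosynthetic markers were detected in every library. Summed root markers ran from 81.5 to 132.0 CPM in Col-0 at 0 h, from 80.4 to 103.6 in Col-0 at 4 h, from 93.0 to 112.8 in RNAi-MARS at 0 h and from 65.5 to 90.2 in RNAi-MARS at 4 h. Library C of Col-0 at 0 h was lowest of its group for both the root sum and the phosphate genes, whereas library A of Col-0 at 4 h had the highest root sum of its group and the lowest phosphate genes. Library A of RNAi-MARS at 0 h and library B of RNAi-MARS at 4 h had the highest root sums of their groups, 112.8 and 90.2 CPM, and the highest levels of 9 of the phosphate genes. Library C of RNAi-MARS at 4 h, the lowest for those 9 genes, had nearly the same root sum as B, 89.3 CPM. Library A of that group, between them for those genes, had the lowest root sum, 65.5 CPM. Correlations of the 10 genes with the root score, the mean log2 deviation of the root markers, had r from 0.118 to 0.438, and 0 of 10 passed (lowest adjusted permutation p = 0.622 for r and 0.399 for rho). Summed shoot markers were 59740 to 76970 CPM in Col-0 at 0 h, 44690 to 46980 in Col-0 at 4 h, 65240 to 69230 in RNAi-MARS at 0 h and 30710 to 46700 in RNAi-MARS at 4 h. Library B of RNAi-MARS at 4 h, highest of its group for 9 of the phosphate genes, had the lowest shoot sum of all libraries, 30710 CPM. In each other group, too, the library highest for most of those genes had the lowest shoot sum. These were B in Col-0 at 0 h (59740 CPM), B in Col-0 at 4 h (44690) and A in RNAi-MARS at 0 h (65240, against 65330 in B). By the mean log2 deviation of the shoot markers, B and not A was lowest in RNAi-MARS at 0 h (0.388 against 0.523). Shoot markers were not correlated with the 10 genes, and the part of organ proportions in the levels was not tested.

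A wider list of 71 other phosphate genes was chosen by function: 20 regulators, 17 genes of transport, 13 of lipid remodelling, 14 phosphatases and nucleases, and 7 microRNA precursors. Of these 59 passed the filter on low counts, and none of the 7 precursors did. In Col-0 15 of the 59 rose and 14 fell between 0 h and 4 h, and in RNAi-MARS 19 rose and 8 fell, where the shares of all features called higher and lower were 20.7% and 19.3% in Col-0 and 21.6% and 21.0% in RNAi-MARS. The count of falls in Col-0 was 7 of 60 tested without library A of either Col-0 group, 8 without C of Col-0 at 4 h, 9 without B of RNAi-MARS at 0 h and 19 of 59 without B of RNAi-MARS at 4 h. Without the filter on low counts it was 9 of 67, and in DESeq2 18 of 67. The median log2 difference was -0.30 in Col-0 and 0.42 in RNAi-MARS. None was called between genotypes or for the difference of the responses by edgeR, limma-voom or DESeq2, while 3, 5 and 13 of the 59 had an unadjusted p under 0.05 at 0 h, at 4 h and for the difference of the responses, against 4.33%, 8.82% and 4.79% of all features.

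By function, 8 of 20 regulators rose and 5 fell in Col-0, and 8 rose and 4 fell in RNAi-MARS. Of 13 tested transport genes 2 rose and 4 fell in Col-0, and 3 rose and 2 fell in RNAi-MARS. Among 12 tested lipid genes the counts were 2 and 4 in Col-0 and 3 and 2 in RNAi-MARS, and among the 14 phosphatases and nucleases they were 3 and 1 in Col-0 and 5 and 0 in RNAi-MARS. These counts stand beside the same shares of all features, 20.7% higher and 19.3% lower in Col-0 and 21.6% and 21.0% in RNAi-MARS. Without library A of Col-0 at 4 h the falls in Col-0 were 3 regulators, 2 transport genes, 2 lipid genes and 0 phosphatases and nucleases, and without library B of RNAi-MARS at 4 h they were 5, 7, 5 and 2. Without the latter library the counts in RNAi-MARS were 3 rises and 4 falls for transport, 2 and 2 for lipid genes and 3 and 0 for phosphatases and nucleases. The share of all features called in either direction in Col-0 was 34.2% and 41.1% in these 2 runs. In RNAi-MARS it was 36.8% without library B of RNAi-MARS at 4 h. The largest rises in Col-0 were those of BFN1, a nuclease of senescing tissue (log2 2.53, edgeR adjusted p = 0.00111), VIH2, a kinase that makes inositol pyrophosphates (2.34, 6.88e-08), ZAT6, a zinc finger regulator (2.30, 8.66e-05), and PAP22, a purple acid phosphatase (1.80, 0.00750). VIH2 stood at 19.4, 22.7 and 22.6 CPM in Col-0 at 0 h and at 108.7, 116.1 and 103.8 CPM at 4 h, with a narrow spread in both groups. The largest falls in Col-0 were those of the phosphatase PAP24 (log2 -2.91, edgeR adjusted p = 0.0446), the galactolipid synthase MGD2 (-1.83, 0.0405), the glycerol-3-phosphate permease G3Pp1 (-1.09, 0.0424) and UGP3, which supplies the sulfolipid pathway (-1.04, 0.00162). The calls of PAP24, MGD2 and G3Pp1 were lost in 13, 9 and 11 of 20 alternative analyses, and that of UGP3 in 0.

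In RNAi-MARS the largest rises were those of the mitochondrial phosphate carrier PHT3;2 (log2 4.71, edgeR adjusted p = 0.0120), PAP22 (3.73, 0.000136), BFN1 (2.99, 0.000398) and ZAT6 (2.92, 1.86e-05). PHT3;2 rested on 4, 3 and 2 counts at 0 h and 46, 297 and 14 counts at 4 h in libraries A, B and C. Its call was lost in 2 of 19 alternative analyses. The largest falls were those of the plastid carrier PHT2;1 (-1.18, 3.29e-05), SPX4 (-1.07, 5.12e-05), the phosphate exporter PHO1 (-1.05, 0.00741) and PHO2 (-0.85, 0.00746). Each of these genes was also called lower in Col-0. The log2 differences there were -1.01, -0.97, -0.97 and -0.74 in the same order (edgeR, adjusted p = 0.00012, 0.00012, 0.012 and 0.016). PHO2, the target of miR399, stood at 200.3, 131.6 and 163.9 CPM in RNAi-MARS at 0 h and at 93.6, 109.1 and 73.0 CPM at 4 h, without overlap. In Col-0 it ran from 139.1 to 196.8 CPM at 0 h and from 80.4 to 123.5 CPM at 4 h, also without overlap.

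The within-group pattern was shared by part of the wider list. Over the 12 libraries, 25 of the 59 genes (42.4%) had r above 0.8 with the mean deviation of the 9 genes other than RNS1, against 287 of 21774 nuclear genes (1.32%), and 10 (16.9%) had r above 0.9, against 64 (0.294%). The likest were the phosphatase PS2 at 0.992, the lipid enzymes GDPD1 at 0.977, MGD2 at 0.977 and PLDP2 at 0.971, and the inositol pyrophosphate kinase VIH1 at 0.944. PS2 stood at 49.7, 70.5 and 14.2 CPM in Col-0 at 0 h, 4.596, 30.4 and 21.2 at 4 h, 29.5, 7.21 and 4.29 in RNAi-MARS at 0 h and 39.3, 137.6 and 4.83 at 4 h. Its high and low libraries were those of PECP1. PHR1 itself had r = -0.487 and an SD within groups of 0.0948 log2 units, from 54.8 to 62.2 CPM in RNAi-MARS at 4 h. These correlations describe libraries that share their RNA and depth and carry no test. The list was chosen by function but with earlier results of these data known, so its shares are a description only.

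**Figure D5:**
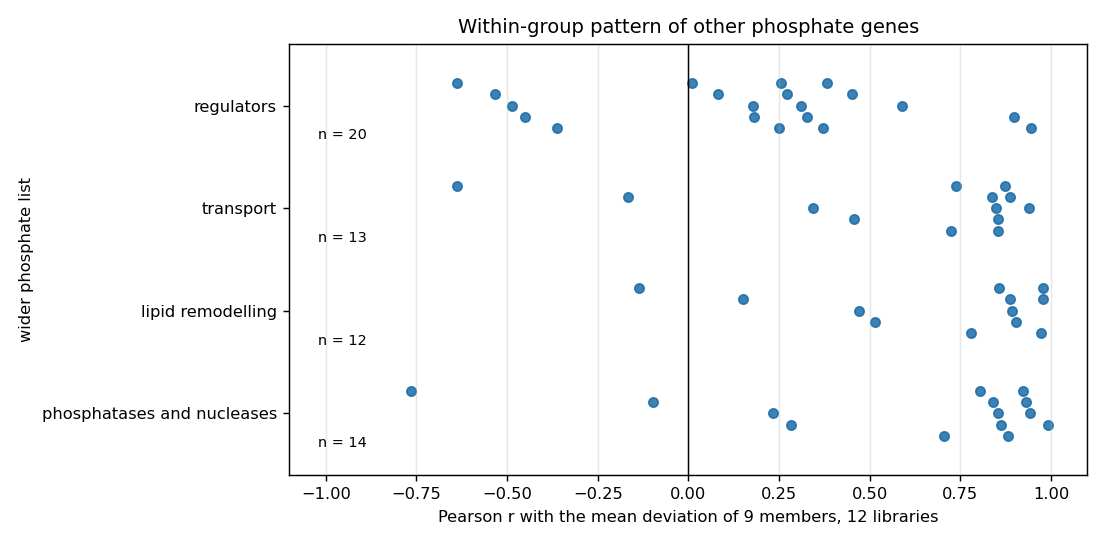
Pearson r over 12 libraries between the within-group deviation of each tested gene of the wider list and the mean deviation of the 9 genes other than RNS1, by function; 1 point is 1 gene and the vertical offset only separates points. Most phosphatases, lipid and transport genes lie above 0.7, and most regulators lie below 0.5.

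Among all nuclear genes outside the 10, those with the likest within-group pattern were named as the 3 with the highest r for each gene, again over 12 libraries. For IPS1 they were AT2G08820 at r = 0.991, AT1G23110 at 0.988 and AT1G08310 at 0.982. For SPX3 they were AT3G25240 at 0.986, PS2 at 0.985 and SAL2 at 0.972, and for PHT1;4 they were AT2G37890 at 0.983, PHT3;2 at 0.982 and PHT1;9 at 0.971. SQD1 was closest to SPX2 at 0.987, PAP12 at 0.971 and PAP17 at 0.966, all of the wider list. SQD2 was closest to PPCK1 at 0.988, MGD3 to PAP14 at 0.988, PECP1 to AT1G23110 at 0.981, AT4 to AT2G08820 at 0.982 and SPX1 to AT4G33770 at 0.985. For RNS1 the values were lower, with SOS2 at 0.938, AT5G40180 at 0.927 and FKBP15-2 at 0.915.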

How the data were processed

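The authors deposited 1 estimated count for each feature in a library, without normalization, as the values themselves show; 5.31% to 7.60% of the features held values that were not whole. Tools named in the submitters' processing notes are STAR 2.7.2a, Trimmomatic 0.36 and Subread 1.6.5 with featureCounts, on the build TAIR10. Strand setting and the treatment of reads with several matches are not given in the sources used here, and no member overlaps another annotated gene. Names, coordinates and sequences came from TAIR10.1.

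After rounding, edgeR 4.0.16 in R 4.3.3 fitted a quasi-likelihood model (TMM, filterByExpr minimum count 10, robust dispersions) on all 12 libraries with 1 coefficient per group. Calls are at a Benjamini-Hochberg adjusted p under 0.05 over all 22465 tested features, and all tests are 2-sided. The SE is the log2 difference divided by the square root of F. CPM used TMM factors, and log2 CPM a prior count of 2. Alternatives were DESeq2 1.42.0, limma-voom (limma 3.58.1), RLE factors, other filters, the compared groups alone, a replicate block and each library left out. Intervals and floors cover counting error only.

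Genes named from the wider list were, for each comparison, up to 4 called in each direction with the largest log2 difference and a mean of at least 1 CPM. Members and lists were chosen with earlier results of these data known.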

Additional observations from a re-analysis of the deposited data

How the results depend on the processing

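The number of the 10 genes called over time in Col-0 was 3, and 2 to 5 with each library left out in turn. In DESeq2 it was 5, with AT4 and SQD2 added. The share of all features called there was 40.0%, with 31.1% to 41.1% when each library was left out and 28.5% in DESeq2. In RNAi-MARS the number of the 10 called was 1, and for the genotype and the difference of the responses 0, under every alternative run. Over all features the genotype difference after ABA had 20 calls, 71 in DESeq2, 13 with the compared groups alone and 13 to 55 with each library left out, and the difference of the responses had 0 calls and 4 in DESeq2. The 18 same-letter correlations of deviations ran from -0.299 to 0.403, with 8 above 0.1. Libraries of different letters were not compared, so these values cannot show whether the letters pair the samples. With a replicate block 4 of the 10 genes were called over time in Col-0, and over all features 9017 and 9693 were called over time, 23 and 16 between genotypes at 0 h and 4 h, and 0 for the difference of the responses. The RNAi-MARS difference between times reversed for SQD2 in limma-voom (-0.024). With each library left out it ran from -0.027 to 2.67 for IPS1, -0.17 to 1.19 for PHT1;4 and -0.34 to 0.57 for SQD2, and the genotype difference after ABA of PHT1;4 ran from -0.40 to 1.049. Without library A of Col-0 and library B of RNAi-MARS at 4 h, a choice made after seeing the data, the RNAi-MARS difference was -0.022 for IPS1, -0.17 for PHT1;4 and -0.34 for SQD2. The genotype difference after ABA was then -0.17 for SPX1, -0.26 for SPX3, -0.77 for PHT1;4, -0.13 for SQD1, -0.13 for SQD2 and -0.29 for MGD3, while leaving out single libraries gave up to 1.35 for SPX1, 2.56 for SPX3, 0.43 for SQD1, 0.998 for SQD2 and 2.74 for MGD3. The cause was not tested. Of the 45 correlations, 39 passed by r, as they did with RLE factors or a prior count of 0.5, and 31 did without the 2 farthest libraries. Groups of 3 limit what these tests can call, and IPS1, SPX3, MGD3 and RNS1 rest on fewer than 20 counts in some libraries.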

Other observations

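The precursors of the microRNAs of the phosphate response were below the filter on low counts, and their values were not tested. MIR399D held 83 counts (1.91 CPM) in library B of RNAi-MARS at 4 h and at most 10 counts (0.347 CPM, in library B of Col-0 at 0 h) in any other library. MIR399C held 17 counts (0.392 CPM) in the same RNAi-MARS library, against at most 4 counts elsewhere and up to 0.139 CPM in Col-0 at 0 h. MIR827 held 18 counts (0.415 CPM) there and at most 8 counts elsewhere, but its level in Col-0 at 0 h reached 0.349 CPM. Library B of RNAi-MARS at 4 h and library B of Col-0 at 0 h were also the ones with the highest IPS1 and AT4 of their groups. MIR399B had its highest level elsewhere, 0.118 CPM in RNAi-MARS at 0 h. In RNAi-MARS at 4 h it lay between 0.0344 and 0.0483 CPM. MIR399A, MIR399E and MIR399F had 0 counts in all 12 libraries, which allows up to 3 counts in each, or 0.0691 to 0.156 CPM. Libraries of polyadenylated RNA count the precursor transcript and not the mature microRNA.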
